A study of Mus musculus with 2 samples.

Results

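The fibroblast growth factor (FGF) and epidermal growth factor (EGF) families were followed here as 46 genes chosen by name: 22 FGF genes, 5 FGF receptor genes, 8 feedback and target genes of the pathway, 8 EGF family ligands and 3 EGF family receptors. A probe set whose single gene symbol was one of these names stood for the gene, which gave values for 45 of the 46 genes among 19938 genes in all. *Areg*, the ligand amphiregulin, was not analysed here. The tissue was the whole pancreas of mouse embryos at E15.5, on an ICR background. *Mafk*-Tg embryos carried a murine *Mafk* cDNA with a FLAG tag under the rat insulin I promoter, which acts in β-cells, and WT embryos carried no transgene. The design gives 3 embryos per genotype, and the deposited table holds 1 array of *Mafk*-Tg and 1 array of WT. Whether an array holds a pool of embryos is not stated. Most RNA of the whole pancreas does not come from β-cells, and in such bulk tissue fewer cells of a type cannot be told apart from less RNA per cell.

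FGFs are secreted ligands that bind receptor tyrosine kinases together with heparan sulfate, and the signal runs through RAS and ERK to transcription factors of the ETS class. Its targets include Sprouty and Spred proteins and the phosphatase DUSP6, which dampen the same cascade. In the mouse pancreas *Fgf10* of the mesenchyme acts on FGFR2 of the epithelium and keeps progenitors dividing, and the EGF receptor family takes part in the growth and the differentiation of the epithelium. MAFK binds DNA at Maf recognition elements and lacks a transactivation domain. TGCTGA, called the Maf core here, is a part of that longer palindromic element and not the whole of it.

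The arrays also differed outside these genes. *Xist*, the RNA of the inactive X chromosome, had a log2 value of 11.30 in *Mafk*-Tg and 4.40 in WT, and *Eif2s3y*, *Uty* and *Kdm5d* of the Y chromosome had differences of -5.68 to -3.93, so that genotype and the sex-linked difference cannot be told apart. *Mafk* itself had 7.00 in *Mafk*-Tg and 6.75 in WT, a difference of 0.25 that fell short of 1.2-fold. The acinar carboxypeptidase gene *Cpa1* had 13.51 in *Mafk*-Tg and 13.48 in WT, and the pancreatic transcription factor genes *Ptf1a* and *Pdx1* lay above the median level on both arrays. The marker lists moved in both directions: all 14 epithelial markers measured and all 10 acinar ones were above 0 in *Mafk*-Tg minus WT, with medians of 0.15 and 0.22, and 8 of 12 endocrine markers were at least 1.2-fold higher and 2 lower, with a median of 0.32. In contrast, 11 of 12 leukocyte markers and 8 of 9 erythroid ones were at least 1.2-fold lower, with medians of -0.59 and -0.54.

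Of the 45 genes measured, 2 passed 1.2-fold upward in *Mafk*-Tg (4.44%), against 7.96% of all genes, and 3 passed it downward (6.67%), against 10.5% of all genes. The 5 genes are given as single values and not as a result about the families. The 2 higher genes were the ligands *Fgf7* and *Fgf21*, and the 3 lower ones were the ligands *Fgf1* and *Ereg* and the feedback gene *Spry4*. Of all 45 genes, 22 differed by less than 0.1 on the log2 scale, 18 by 0.1 up to the cutoff of 0.26, and 0 reached 1.5-fold, a size that 0.697% of all genes passed upward and 1.27% downward, too few for the 0 to set the families apart. The differences were above 0 for 20 genes, below 0 for 22 and exactly 0 for 3, and their median was 0.00, against -0.01 for all genes.

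**Figure D1:**
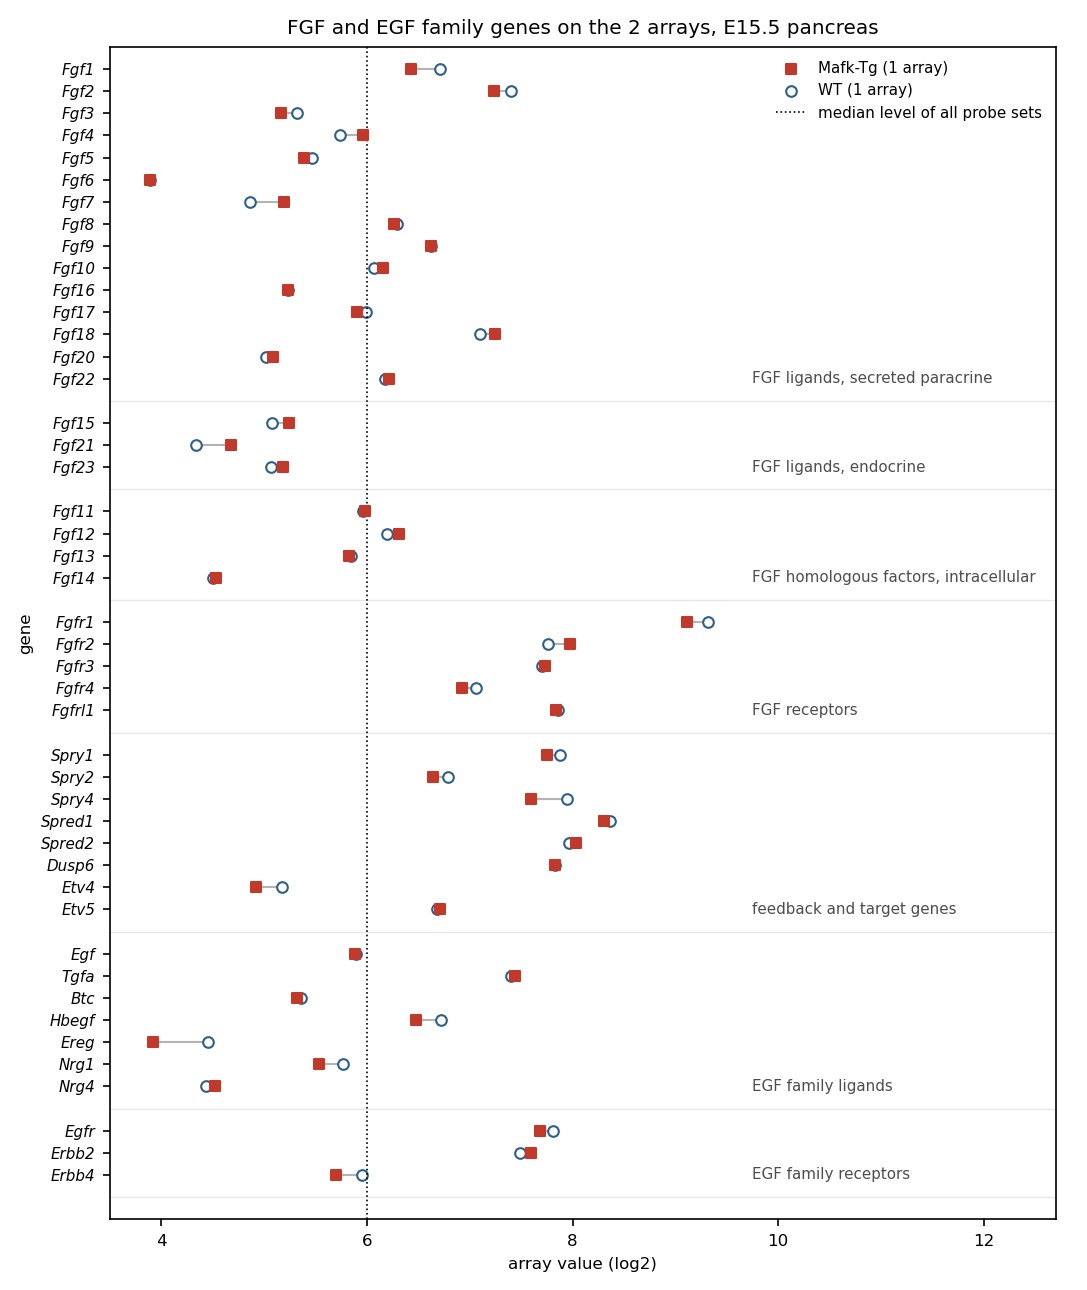
Log2 array value of each of the 45 genes measured in *Mafk*-Tg (squares) and WT (circles), with 1 array per genotype, a line joining the values of a gene, and a dotted line at the median level over the whole array. The squares and circles lie close together or overlap for most genes, and *Ereg* has the longest line, with 3.92 in *Mafk*-Tg and 4.45 in WT.

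The level of a gene bears on how far its values can be read. The median level of all probe sets was 6.00 on the log2 scale, and the robust SD of the difference over all genes was 0.15 at or above it and 0.24 below it. Of the 45 genes, 24 lay at or above this level and 21 below it. Among the 24, 0 passed 1.2-fold upward and 2 downward (8.33%), against 5.58% and 5.87% of the 11412 genes of that range. Among the 21, 2 passed upward and 1 downward, against 11.1% and 16.6% of 8526 genes. The median size of the difference was 0.11 among the 24 genes and 0.10 among all genes of that range. Below the median level it was 0.09 among the 21 genes and 0.17 among all genes of that range. With no replicate array, the spread of genes of similar level is the only scale at hand. It is given below as the robust SD of the difference among the 500 genes nearest in level, which is a spread between genes and not an error of a gene's value.

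**Figure D2:**
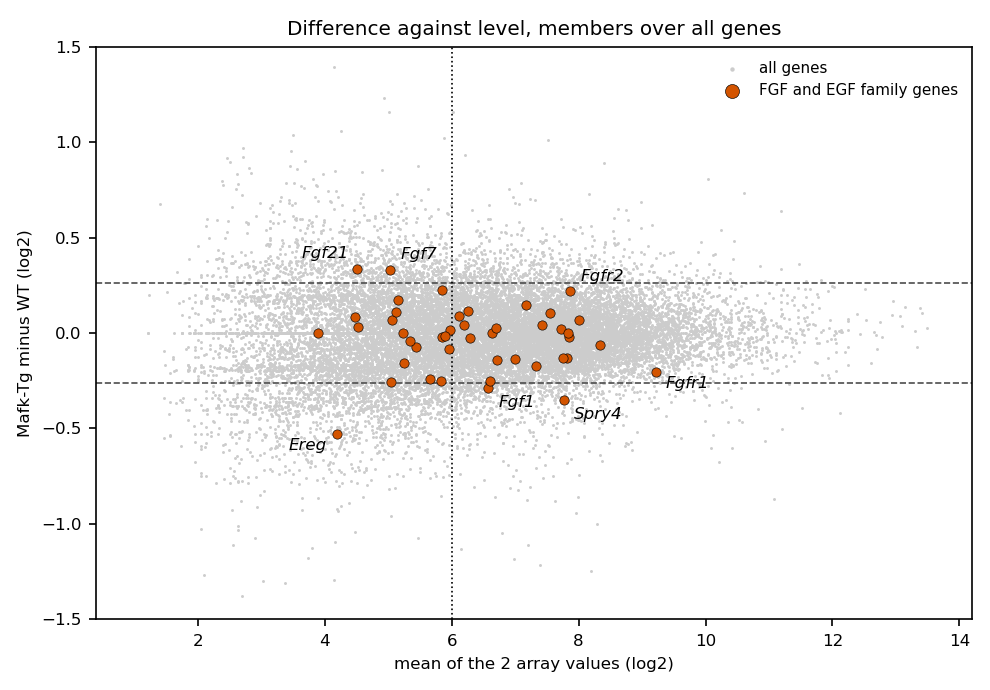
Log2 difference, *Mafk*-Tg minus WT, against the mean of both arrays for the FGF and EGF family genes (orange) and all 19938 genes (grey), with dashed lines at 1.2-fold, a dotted line at the median level over the whole array, and 9 genes beyond 1.5 in either direction not drawn. The named genes are the 5 past 1.2-fold and *Fgfr1* and *Fgfr2*, and all lie inside the cloud of other genes of their level.

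Of *Fgf7* and *Fgf10*, the pair of ligands that pancreatic mesenchyme supplies to epithelium, *Fgf7* was past the cutoff and *Fgf10* was not. *Fgf7*, keratinocyte growth factor, had a log2 value of 5.20 in *Mafk*-Tg and 4.87 in WT, a difference of 0.33 or 1.26-fold. Both values lay below the median level, and genes near it had a robust SD of 0.24. *Fgf10*, which drives the growth of pancreatic progenitors, had 6.16 in *Mafk*-Tg and 6.07 in WT, a difference of 0.09, or 1.06-fold. The mesenchyme markers, whose cells make both ligands, went the other way: 12 of 17 were below 0, 3 were at least 1.2-fold lower and 0 higher, and their median was -0.10. Their summed linear signal was 11900 in *Mafk*-Tg and 12710 in WT, and the lower 3 were *Myl9* at -0.43, *Tcf21* at -0.42 and *Pdgfrb* at -0.35. All 4 markers of spleen stroma, *Wt1* shared with the mesothelium list among them, were also below 0, with a median of -0.33 and 2 at least 1.2-fold lower. The part of these cells in the ligand values was not tested.

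The promoters of *Fgf7* and *Fgf10* and of their receptor gene *Fgfr2* are shown because these genes form the mesenchymal to epithelial signal. That of *Fgf21* is shown because it was the other gene past the cutoff upward. They were read for the Maf core because the transgene encodes a DNA-binding MAF protein. The insulin promoter of the transgene acts in β-cells, and whether MAFK reaches any of these promoters was not tested. Each runs from 250 bases before to 50 bases after the RefSeq start in GRCm38.p6, and capitals mark the Maf core TGCTGA on either strand.
Fgf7, chr2:126034408-126034707, plus strand: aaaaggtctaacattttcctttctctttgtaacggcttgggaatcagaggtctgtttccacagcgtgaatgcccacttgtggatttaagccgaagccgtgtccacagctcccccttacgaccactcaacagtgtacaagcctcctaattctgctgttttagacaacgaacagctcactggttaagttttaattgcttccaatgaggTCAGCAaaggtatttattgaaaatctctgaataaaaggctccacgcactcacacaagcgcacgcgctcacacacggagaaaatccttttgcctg
Fgf10, chr13:118714449-118714748, plus strand: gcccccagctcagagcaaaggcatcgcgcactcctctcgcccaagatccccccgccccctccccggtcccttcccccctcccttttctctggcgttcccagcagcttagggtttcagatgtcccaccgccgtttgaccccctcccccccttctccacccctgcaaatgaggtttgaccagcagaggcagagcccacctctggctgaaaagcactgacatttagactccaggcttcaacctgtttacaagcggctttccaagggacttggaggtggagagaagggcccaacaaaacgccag
Fgfr2, chr7:130266759-130267058, minus strand: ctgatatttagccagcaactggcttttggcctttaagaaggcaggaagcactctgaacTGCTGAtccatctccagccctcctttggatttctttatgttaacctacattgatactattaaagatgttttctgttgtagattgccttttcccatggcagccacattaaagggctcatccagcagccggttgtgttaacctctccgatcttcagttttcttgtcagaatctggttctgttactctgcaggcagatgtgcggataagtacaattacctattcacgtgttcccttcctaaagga
Fgf21, chr7:45615441-45615740, minus strand: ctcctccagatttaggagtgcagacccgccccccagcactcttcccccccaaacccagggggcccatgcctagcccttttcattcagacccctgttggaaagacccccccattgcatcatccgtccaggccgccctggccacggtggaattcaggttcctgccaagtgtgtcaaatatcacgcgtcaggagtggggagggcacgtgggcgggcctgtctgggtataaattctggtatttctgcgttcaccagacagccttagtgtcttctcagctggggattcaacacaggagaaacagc
*Fgf7* holds the core on the opposite strand, beginning 44 bases before the start, and *Fgfr2* holds it 192 bases before the start. The windows of *Fgf10* and *Fgf21* hold no such letters. Promoters were found for 34 of the 46 genes. Of these 34 genes, 8 (23.5%) had the core in at least 1 window, against 21.7% of the 27025 genes with a promoter. The others with the core were *Fgf6* and *Fgf9*, both with a difference of 0.00, *Egf* at -0.02, *Nrg4* at 0.09, *Spry1* at -0.13, and *Areg*, which was not analysed. *Fgf1*, *Spry4* and *Ereg*, the genes past the cutoff downward, were not among the 34, so their promoters were not read. The AP-1 core TGANTCA was found in 2 of the 34 (5.88%), against 8.97% of all genes, and the ETS core CCGGAA in 8 (23.5%), against 16.7%. Both strands were read, and TGCTGA and TGANTCA can overlap. A match is a stretch of letters and not a bound site.

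Of the other paracrine FGF ligands, *Fgf1* was past the cutoff, and the rest lay within it. *Fgf1*, which binds all FGF receptors, had 6.43 in *Mafk*-Tg and 6.71 in WT, a difference of -0.29 or 1.22-fold lower, with a robust SD of 0.19 at its level. *Fgf2*, the other member of its subfamily, had 7.24 in *Mafk*-Tg and 7.41 in WT, a difference of -0.17. Both members of this subfamily were therefore below 0. *Fgf18*, a ligand with roles in bone and lung, had 7.24 in *Mafk*-Tg and 7.10 in WT, a difference of 0.15. *Fgf8*, a ligand of the early embryo, had 6.27 and *Fgf22*, of the *Fgf7* subfamily, had 6.22 in *Mafk*-Tg, against 6.30 and 6.17 in WT. *Fgf9*, which in the lung is made by mesothelium and epithelium, had 6.63 on both arrays. Its values, like those of *Fgf6* and *Fgf16*, were equal to the last digit, as they were for 687 of all genes (3.45%), and *Fgf16* lies on the X chromosome. The 4 mesothelium markers, of which 1 was above 0 and 3 below, ranged from *Wt1* at -0.13 to *Msln* at 0.08, with a median of -0.05. Of the 15 paracrine ligands measured, 6 were above 0, 6 below and 3 at 0, with a median of 0.00. The 8 that lay below the median level, *Fgf7* among them, ranged in difference from -0.16 to 0.33, and *Fgf4* at 0.23 was the largest of those within the cutoff.

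The 3 endocrine FGFs, which circulate and need a Klotho protein as a co-receptor, were all above 0 in *Mafk*-Tg minus WT, and all lay below the median level. *Fgf21*, a metabolic hormone that mouse acinar cells also make, had a log2 value of 4.68 in *Mafk*-Tg and 4.34 in WT, a difference of 0.34 or 1.26-fold, with a robust SD of 0.25 at its level. *Fgf15*, the bile acid signal of the ileum, had a difference of 0.17, and *Fgf23*, the phosphate hormone of bone, one of 0.11. *Klb*, which encodes β-Klotho, the co-receptor of FGF21 and FGF15, had 6.56 in *Mafk*-Tg and 6.20 in WT, a difference of 0.37 or 1.29-fold, at or above the median level. *Kl*, the co-receptor of FGF23, lay below the median level with 4.33 in *Mafk*-Tg and 4.54 in WT. Its difference was -0.21, and genes near its level had a robust SD of 0.26. The acinar markers were above 0 beside them, 10 of 10 measured and 2 at least 1.2-fold higher, with a summed linear signal of 41690 in *Mafk*-Tg and 37960 in WT. Their part in the *Fgf21* and *Klb* values was not tested. The 4 FGF homologous factors, which stay inside the cell and regulate sodium channels, were all within the cutoff, from -0.02 for the X-linked *Fgf13* to 0.12 for *Fgf12*. Of all genes, 7.96% passed it upward and 10.5% downward, too few for this to set 4 genes apart. *Fgf12* had 6.31 in *Mafk*-Tg and 6.19 in WT.

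**Figure D3:**
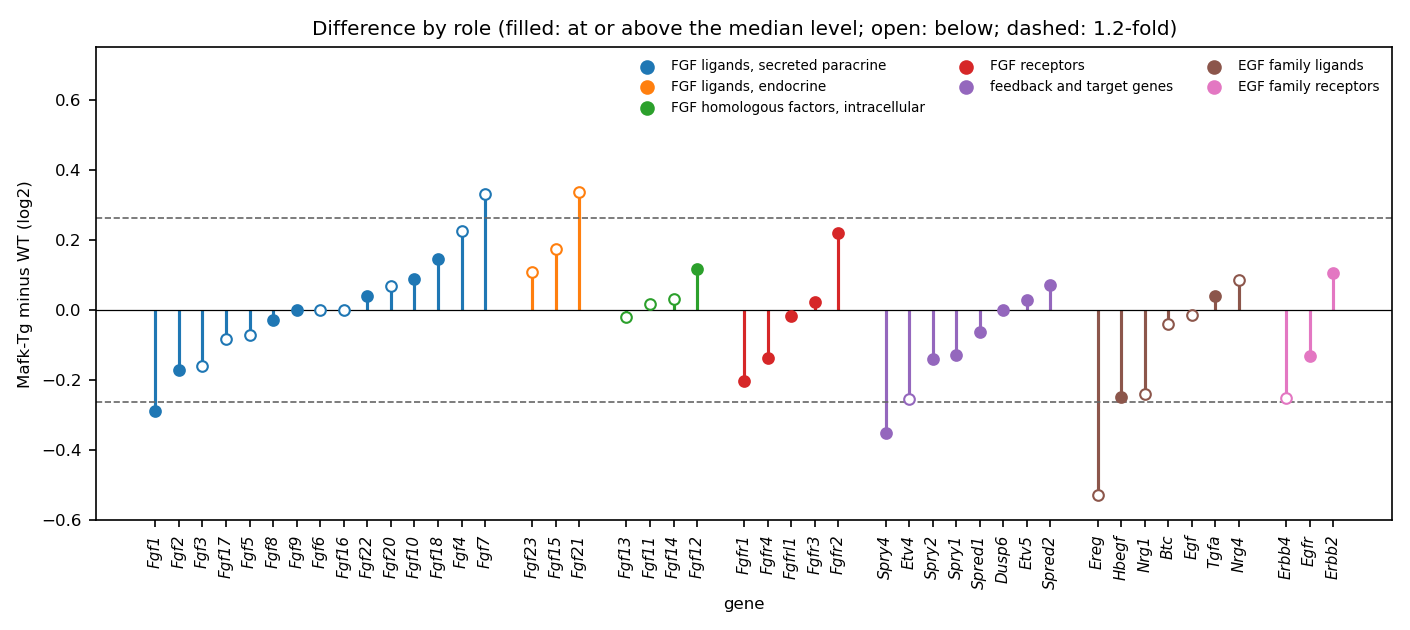
Difference in log2 value, *Mafk*-Tg minus WT, by gene and role, with a single array per genotype, filled points at or above the median level, open points below it, and dashed lines at 1.2-fold. *Fgf7* at 0.33 and *Fgf21* at 0.34 lie above the upper line, and *Fgf1* at -0.29, *Spry4* at -0.35 and *Ereg* at -0.53 below the lower one.

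All 5 FGF receptor genes lay above the median level. Of the 5, 0 passed 1.2-fold, against 5.58% upward and 5.87% downward of all genes of that range. Among 5 genes such shares are too small for the 0 to set them apart. The pair used by mesenchyme and epithelium differed in sign. *Fgfr2*, whose epithelial isoform receives FGF7 and FGF10, had 7.98 in *Mafk*-Tg and 7.76 in WT, a difference of 0.22, or 1.17-fold. *Fgfr1*, the receptor of mesenchyme in many organs, had 9.11 in *Mafk*-Tg and 9.31 in WT, a difference of -0.20. Single genes of their levels had a robust SD of 0.15 and 0.14, and the contrast between both genes has no error or test. The probe sets used here do not separate the isoforms of a receptor. The epithelial markers moved with *Fgfr2*, 14 of 14 measured being above 0, among them *Cldn6* at 0.32, *Cdh1* at 0.20 and *Epcam* at 0.15. Their summed linear signal was 10260 in *Mafk*-Tg and 9161 in WT, and their part in the *Fgfr2* value was not tested. *Fgfr1* was below 0, as were 12 of 17 mesenchyme markers and all 8 endothelial ones, which had a median of -0.12. *Fgfr4*, the receptor that serves FGF15 in liver, had 6.93 in *Mafk*-Tg and 7.06 in WT, a difference of -0.14. Genes near the level of *Fgfr4* had a robust SD of 0.17. Hepatocyte markers were lower in *Mafk*-Tg, with 7 of 10 at least 1.2-fold lower, 1 higher and a median of -0.50. The part of the marked cells in the *Fgfr1* and *Fgfr4* values was not tested. *Fgfr3*, a receptor that restrains growth in bone, had 7.73 in *Mafk*-Tg and 7.71 in WT, and *Fgfrl1*, which lacks a kinase domain, had 7.84 in *Mafk*-Tg and 7.86 in WT.

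The feedback and target genes of the pathway had a median difference of -0.10. Of the 8, 1 was past the cutoff, downward (12.5%), against 10.5% of all genes, so the count does not set them apart. *Spry4*, a Sprouty inhibitor of RAS and ERK signalling, had 7.59 in *Mafk*-Tg and 7.94 in WT, a difference of -0.35 or 1.27-fold lower. Its values lay above the median level, where genes near it had a robust SD of 0.15. *Spry1*, which restrains FGF and GDNF signals, had 7.75 in *Mafk*-Tg and 7.88 in WT, a difference of -0.13. *Spry2*, a Sprouty protein of branching epithelia, had 6.65 in *Mafk*-Tg and 6.79 in WT, a difference of -0.14. All 3 Sprouty genes were thus below 0, with *Spry1* and *Spry2* within the cutoff. The other feedback and target genes did not share this sign throughout, and ERK activity itself was not measured. *Dusp6*, the phosphatase of ERK, had 7.83 on both arrays, a difference of 0.00. *Etv5*, an ETS factor induced by FGF, had 6.71 in *Mafk*-Tg and 6.68 in WT, but its 2 probe sets had opposite signs, 0.15 and -0.09. *Etv4*, its close relative, lay below the median level with a difference of -0.25, just within the cutoff. *Spred1*, an inhibitor that brings neurofibromin to RAS, had 8.30 in *Mafk*-Tg and 8.37 in WT, and *Spred2*, its relative, had 8.04 in *Mafk*-Tg and 7.97 in WT, with 0.09 and 0.05 on its 2 probe sets. Beside them 11 of 12 leukocyte markers, all 9 erythroid and all 8 endothelial ones were below 0, and whether they bear on the Sprouty values was not tested.

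In the EGF family, *Ereg* had the largest difference of all 45 genes, at a low level. *Ereg*, epiregulin, had a log2 value of 3.92 in *Mafk*-Tg and 4.45 in WT, a difference of -0.53 or 1.44-fold lower, where genes near it had a robust SD of 0.26. *Hbegf*, the heparin-binding ligand, lay above the median level with 6.47 in *Mafk*-Tg and 6.72 in WT, a difference of -0.25 that fell just short of the cutoff. *Nrg1*, neuregulin 1, had -0.24 below the median level. Myeloid cells express both *Ereg* and *Hbegf*, and the leukocyte markers had a summed linear signal of 4417 in *Mafk*-Tg and 7380 in WT, from *Cd68* at 0.01 to *Ctsg* at -1.25. Their part in these values was not tested. *Tgfa*, a ligand of the EGF receptor in epithelia, had 7.44 in *Mafk*-Tg and 7.40 in WT, a difference of 0.04. *Egf* had 5.88 in *Mafk*-Tg and 5.90 in WT, and *Btc*, betacellulin, and *Nrg4*, a ligand of ERBB4, had -0.04 and 0.09, all below the median level. Of the 7 ligands measured, 5 were below 0 and 2 above.

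The 3 EGF family receptors were all within the cutoff, which 7.96% of all genes passed upward and 10.5% downward. Among 3 genes such shares are too small for this to set them apart. *Egfr* had 7.68 in *Mafk*-Tg and 7.81 in WT, a difference of -0.13, and *Erbb2*, the partner receptor without a ligand of its own, had 7.60 in *Mafk*-Tg and 7.49 in WT, a difference of 0.11. A further probe set that *Erbb2* shares with *Sympk* had -0.21 and was not used. *Erbb4*, a neuregulin receptor, had 5.70 in *Mafk*-Tg and 5.95 in WT, a difference of -0.25 below the median level. *Erbb3*, the receptor with an impaired kinase that was not among the 46 genes, had 7.89 in *Mafk*-Tg and 7.82 in WT, a difference of 0.07. On the probe sets used, *Erbb2* and *Erbb3* were above 0, as the epithelial markers were, and *Egfr* and *Erbb4* were below. With the shared probe set averaged in, *Erbb2* had -0.05. Genes near the levels of *Erbb2* and *Erbb3* had a robust SD of 0.15. The part of epithelial cells in these values was not tested.

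The rest of the pathway was followed with 71 further genes, of which 64 were measured. Of the 64, 1 passed 1.2-fold upward in *Mafk*-Tg (1.56%) and 3 passed it downward (4.69%), against 7.96% and 10.5% of all genes. Most of them, 56, lay at or above the median level. In that range 1.79% passed upward and 5.36% downward, against 5.58% and 5.87% of all genes there, so the downward share was near that of all genes. Among the co-receptors and the genes of heparan sulfate, *Klb* was the higher one and the syndecan gene *Sdc3* at -0.29 the lower one, while the glypican genes *Gpc6* and *Gpc1* had -0.22 and -0.21. Among the adaptors and the RAS to ERK cascade, *Ksr1*, a scaffold of the kinases, was lower at -0.31. *Gab2*, a docking adaptor, had -0.26, just within the cutoff, *Sos2*, an activator of RAS, had 0.20 and the phospholipase gene *Plcg1* had -0.17. Among the other feedback genes *Dusp7*, a phosphatase of ERK, was lower, with 9.83 in *Mafk*-Tg and 10.16 in WT, a difference of -0.33. *Errfi1*, which encodes an inhibitor of the EGF receptor, had 0.26, just within the cutoff, *Socs4* had 0.25 and *Il17rd*, the FGF antagonist SEF, had -0.25. Among the genes of ligand shedding and the other neuregulins, *Adam17*, the sheddase of several EGF family ligands, had 0.23, *Nrg2* -0.15, *Adam10* 0.11 and *Rhbdf2* -0.11.

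**Figure D4:**
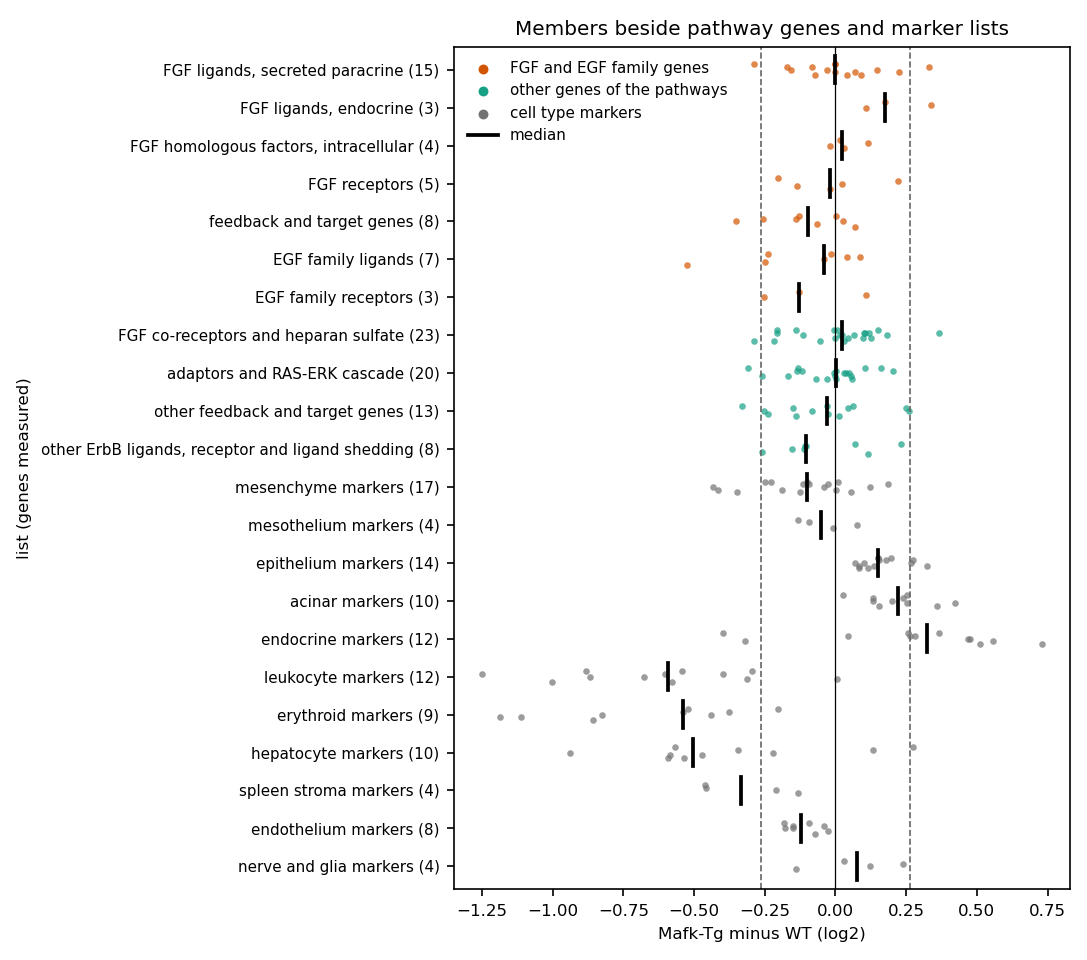
Points give the log2 difference of a measured gene, *Mafk*-Tg minus WT, and bars the median, for the FGF and EGF family groups (orange), other genes of the pathways (green) and cell type markers (grey), from a single array per genotype. Dashed lines mark 1.2-fold. The medians of the family groups lie between -0.13 for the EGF family receptors and 0.17 for the endocrine FGFs, and those of the marker lists between -0.59 for leukocytes and 0.32 for endocrine cells.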

How the data were processed

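Total RNA of whole E15.5 pancreata was hybridised to Affymetrix MoGene-1_0-st-v1 arrays. Normalization and summarization of probe sets were done by the authors with Affymetrix Expression Console, and its version and algorithm are not named in the sources used here. The deposited values are on the log2 scale. The platform's gene table gave 1 symbol to 21789 of 35556 probe sets, several to 1621 and none to 12146. The 21789 were averaged by gene into 19938 genes. The difference is the *Mafk*-Tg value minus the WT value, and the cutoff was the study's 1.2-fold, which is 0.26 in log2 units. A single array per genotype allows no test and no estimate of error, so their number sets the limit of precision.

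The members and lists were chosen with earlier results of these data known. The genes named are all members at or above the median level over the array, members below it that passed 1.2-fold, *Egf*, *Fgf7*, *Fgf9*, *Fgf10* and *Fgf21*, up to 4 genes of each further pathway list with the largest differences at or above that level, and *Erbb3*. Other members and markers named in the text, and the pathway gene *Kl*, were picked after their values had been seen, as were the 4 promoters printed. The alternatives were equal medians, quantile normalization, a loess with a span of 0.3, other choices of probe sets, filters on level and on sex chromosomes, and cutoffs of 1.1-fold and 1.5-fold. Promoters and chromosomes came from RefSeq tables of GRCm38.p6. The steps were run on simulated data with less noise than these data and with planted changes larger than the difference of any member. That run checks the arithmetic and says nothing about calls near 1.2-fold. Software was Python 3.11.15 with matplotlib 3.10.9, numpy 2.4.6, pandas 2.3.3 and statsmodels 0.14.6.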

Additional observations from a re-analysis of the deposited data

How the results depend on the processing

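No paired analysis was possible because each genotype has 1 array, and for the same reason no array could be left out. The 5 family members past 1.2-fold, *Fgf7*, *Fgf21*, *Fgf1*, *Spry4* and *Ereg*, stayed past it, and no other member crossed it, under equal medians, quantile normalization, the loess, the brightest probe set and the inclusion of probe sets with several symbols. Each of these 5 has 1 probe set and shares no other, so the choices of probe sets could not move their values. Leaving out genes of the sex chromosomes kept 2 higher and 3 lower, which was fixed in advance because none of the 5 lies on X or Y. With genes below the median level left out, 0 members were higher and 2 lower, because *Fgf7*, *Fgf21* and *Ereg* lie below that level. The median of the EGF family receptors was then -0.012 in place of -0.13, because *Erbb4* was left out. These changes were fixed in advance by the levels of those genes. At a cutoff of 1.5-fold the members gave 0 higher and 0 lower and the 64 further pathway genes gave 0 and 0, against 0.697% and 1.27% of all genes. At 1.1-fold, 6 members were higher (13.3%, against 20.8% of all genes) and 11 lower (24.4%, against 25.7%). Of the 64 further genes, 8 were higher and 15 lower at that cutoff, against 20.8% and 25.7% of all genes. Equal medians gave 5 lower further genes in place of 3. *Erbb2* had -0.05 in place of 0.11 with the shared probe set averaged in. A group median counted as moved from a shift of 0.1 on the log2 scale, and a count outside 1.5 times. With 1 array per genotype, no value has an error, and the 21 members below the median level lie where genes spread more, with a robust SD of 0.24 against 0.15 above it.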
